A study of Mus musculus with 4 samples.

Results

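The mitochondrial genome of the mouse encodes 37 transcripts, and all 37 are listed among the 56980 genes counted in adult bone marrow mesenchymal stromal cells (MSCs). They were chosen by name, as the genes whose symbol starts with mt-, and comprise 13 mRNAs, 2 rRNAs and 22 tRNAs. From each of 4 male wild-type C57BL/6J mice, aged 14 weeks and inbred in-house for decades, 100 MSCs were sorted into 1 library by the gate PDGFRa+ CD51+ Sca1- CD31- CD45- Ter119-. All animals were wild-type, so the 4 libraries form a single group and nothing was compared between conditions. Reverse transcription from oligo-dT with template switching was followed by PCR and tagmentation. The total was 43545349, 26050230, 42747050 and 22738604 counts in mice 1, 2, 3 and 4.

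Both strands of the mitochondrial genome are transcribed as long precursors that span many genes. Most rRNAs and mRNAs are flanked by tRNAs, and excision of the tRNAs releases them. Most mitochondrial mRNAs then receive a short poly(A) tail, whereas mature tRNAs end in CCA. The 13 mRNAs encode subunits of the respiratory chain, with 7 in complex I, 1 in complex III, 3 in complex IV and 2 in complex V. All other subunits are made from nuclear genes. Pieces of mitochondrial DNA have also been copied into the nuclear chromosomes during evolution, where they are annotated as pseudogenes.

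A part of the mitochondrial genome has such a copy on chromosome 1. The mitochondrial mRNAs inside that part had far lower values than the other mitochondrial mRNAs. Coordinates are those of GRCm38 in the GENCODE M21 annotation, whereas the counts were made on GRCm39. The copy is annotated as 7 pseudogenes on chromosome 1, minus strand, and spans bases 24611535 to 24616197. They follow each other in the order of mitochondrial bases 6390 to 11042. The distances between neighbouring pseudogenes are 140, 233, 2, 69 and 74 bases and an overlap of 4 bases. Those between the matching mitochondrial stretches are the same except for 73 in place of 74. Only annotated transcripts were compared, so the bases between the pseudogenes were not read. That the copy is continuous through them is inferred from order and spacing. The annotated copies are identical to the mitochondrial genes over 681 bases of mt-Co2 (Gm28661), 678 of mt-Atp6 (Gm10925), 783 of mt-Co3 (Gm28437), 294 of mt-Nd4l (Gm10222) and the first 876 of mt-Nd4 (Gm28439). The copies of mt-Co1 (Gm29216, its last 483 bases) and mt-Nd3 (Gm28438, 345 bases) each differ from the mitochondrial gene at 1 base. These differences are shown because they are the only bases in the aligned parts of the 7 copies that tell the genomes apart. The base is in capitals, positions count from the first base of the mitochondrial gene, and the substitutions are A1066T in mt-Co1 and T3C in mt-Nd3.
mt-Co1, bases 1063 to 1095: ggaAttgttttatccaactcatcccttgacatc
Gm29216, the same stretch: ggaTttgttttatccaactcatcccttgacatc
mt-Nd3, bases 1 to 32: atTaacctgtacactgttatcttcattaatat
Gm28438, the same stretch: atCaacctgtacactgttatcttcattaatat

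The position of the copied stretch divides the members into 11 that lie inside it, 2 that lie partly in it and 24 outside. Inside are the mRNAs mt-Co2, mt-Atp8, mt-Atp6, mt-Co3, mt-Nd3 and mt-Nd4l and the tRNAs mt-Ts1, mt-Td, mt-Tk, mt-Tg and mt-Tr. mt-Co1 and mt-Nd4 cross its borders. Only read pairs that mapped to a single place were counted, and at least 80 bases of a pair, both mates together, had to align. Where its mates overlap, a pair can cover fewer than 80 bases of the genome. Of all windows of 80 bases, 99.5% in mt-Co2, 99.5% in mt-Atp6, 99.9% in mt-Co3, 97.8% in mt-Nd3 and 98.6% in mt-Nd4l also occur without a mismatch in an annotated nuclear transcript. The share is 61.4% in mt-Nd4, 37.6% in mt-Co1, 5.21% in mt-Nd2, 1.09% in mt-Nd5 and 0 in mt-Nd1, mt-Nd6, mt-Cytb and both rRNAs. It is also 0 in mt-Atp8, which begins in the 233 bases between Gm28661 and Gm10925 where no pseudogene is annotated and whose last 43 bases, shared with mt-Atp6, are covered by Gm10925. Values of mt-Co2, mt-Atp6, mt-Co3, mt-Nd3 and mt-Nd4l are therefore uncertain as levels of the mitochondrial RNA. Those of mt-Atp8 and of the tRNAs inside, which are shorter than a window, are treated as uncertain too. For these this rests on the inferred continuity of the copy. The part of unique mapping in the members inside was not tested.

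The members took 3.66%, 3.45%, 3.10% and 3.81% of all counts in mice 1 to 4, a mean of 3.50% ± 0.31 (SD, n = 4). The shallowest library, of mouse 4, had the highest share and the deepest, of mouse 1, the next. Of the mitochondrial counts, 55.1% ± 4.84 fell on mRNAs, 44.8% ± 4.83 on rRNAs and 0.145% ± 0.0158 on tRNAs (SD, n = 4). Mouse 2 had the highest rRNA share, 51.3%, and mouse 3 the lowest, 39.8%. mt-Rnr2 and mt-Cytb together held between 52.8% and 56.9% of the mitochondrial counts of each mouse.

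**Figure D1:**
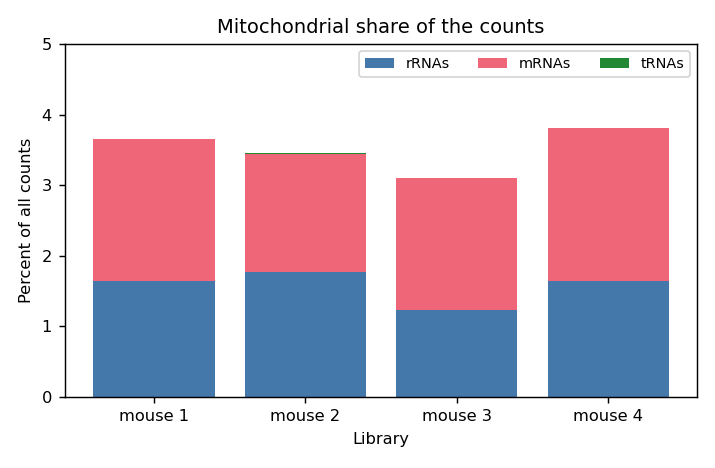
Stacked bars give the percent of all counts of each library on mitochondrial rRNAs, mRNAs and tRNAs, with 1 bar per mouse. The whole bars reach from 3.10% to 3.81%, and the tRNA part is too thin to see.

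At least 3 counts in every library were found for 28 of the 37 members, against 18.1% of all 56980 listed genes. All 13 mRNAs and both rRNAs were among the 28, and 13 of the 22 tRNAs. Levels are given in TPM, in which a count is divided by the length of the gene's exons and each library is scaled to a sum of 1000000, so that genes of different length can be compared. By median TPM, 5 members were among the 20 highest genes of all (mt-Rnr2, mt-Cytb, mt-Nd1, mt-Rnr1 and mt-Nd4) and 9 among the 100 highest.

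Both rRNAs were among the highest genes of these oligo-dT libraries by median TPM. mt-Rnr2, the 16S rRNA of the large mitochondrial ribosomal subunit (mitochondrial bases 1094 to 2675), had 20929, 20620, 14824 and 18821 TPM in mice 1 to 4. mt-Rnr1, the 12S rRNA of the small subunit (70 to 1024), had 7838, 9260, 7409 and 6691 TPM. The ranges did not overlap. mt-Rnr2 was higher in 4 of 4 mice, by 1.27 ± 0.23 in log2(TPM + 1) (SD, n = 4), a ratio of 2.43 ± 0.378 in TPM. The difference was larger than its spread between mice. Sign-flip permutation of the 4 differences (exact, two-sided) gave p = 0.125, below which 4 mice cannot go, and an adjusted p of 0.156 (Benjamini-Hochberg, 5 pairs of genes).

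Among the mRNAs outside the copied stretch, mt-Cytb, the cytochrome b subunit of complex III (14145 to 15288), was highest, with 15298, 11658, 14887 and 14951 TPM. mt-Nd1, a membrane subunit of complex I next to mt-Rnr2 (2751 to 3707), followed with 11597, 8356, 11066 and 10612 TPM. Both were lowest in mouse 2, and mt-Cytb was above mt-Nd1 in 4 of 4 mice by 0.45 ± 0.04 in log2(TPM + 1), the steadiest difference between neighbours in the order of the mRNAs.

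mt-Nd2 (3914 to 4951), mt-Nd5 (11742 to 13565) and mt-Nd6 (13552 to 14070) encode further membrane subunits of complex I. mt-Nd2 had 3276, 3328, 2444 and 3039 TPM. mt-Nd5 had 2194, 1495, 2238 and 2380 TPM, and mt-Nd6 had 1852, 1575, 1325 and 1863 TPM. mt-Nd6 is the only mRNA on the minus strand, and its gene overlaps mt-Nd5 by 14 bases. mt-Nd5 was above mt-Nd6 in 3 of 4 mice, by 0.32 ± 0.34 in log2(TPM + 1), which is less than the spread between mice (exact sign-flip permutation p = 0.25, adjusted p = 0.25). No strand option was used in the counting, so RNA of mt-Nd6 and RNA of the opposite strand over the same bases cannot be told apart.

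The 2 mRNAs that cross the borders of the stretch had levels like those of the genes outside it. mt-Co1, the catalytic subunit of complex IV (5328 to 6872), had 4207, 3331, 3306 and 3773 TPM. mt-Nd4 of complex I (10167 to 11544) had 4468, 4111, 4303 and 4286 TPM and varied least of the 13 mRNAs, with a coefficient of variation (CV) of 5.24% in CPM, the count scaled to a library total of 1000000. Counting only the windows of 80 bases without a nuclear copy as length raised the mean of mt-Nd4 from 4292 to 11076 TPM and that of mt-Co1 from 3654 to 5799 TPM. This alternative was chosen after the data were seen.

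The 6 mRNAs inside the stretch all had lower levels. mt-Nd4l of complex I (9877 to 10173) had 64.1, 43.0, 68.6 and 42.7 TPM, and mt-Nd3 of the same complex (9459 to 9806) had 10.9, 12.9, 9.48 and 13.9 TPM. Of complex IV, mt-Co2, which carries the binuclear copper centre (7013 to 7696), had 59.1, 46.8, 48.0 and 40.5 TPM, and mt-Co3 (8607 to 9390) had 469, 267, 286 and 168 counts, which average 26.6 ± 6.72 TPM over the mice. Of complex V, the ATP synthase, mt-Atp6 of the proton channel (7927 to 8607) had 58.4, 39.5, 52.8 and 48.0 TPM and mt-Atp8 (7766 to 7969) had 29.5, 22.5, 25.5 and 25.6 TPM. In each mouse the highest of these 6 was below the lowest of the other 7 mRNAs. The median TPM of the 5 mRNAs outside was 81.1 ± 14.5 times that of the 6 inside (SD, n = 4), a description of genes that were divided by position.

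**Figure D2:**
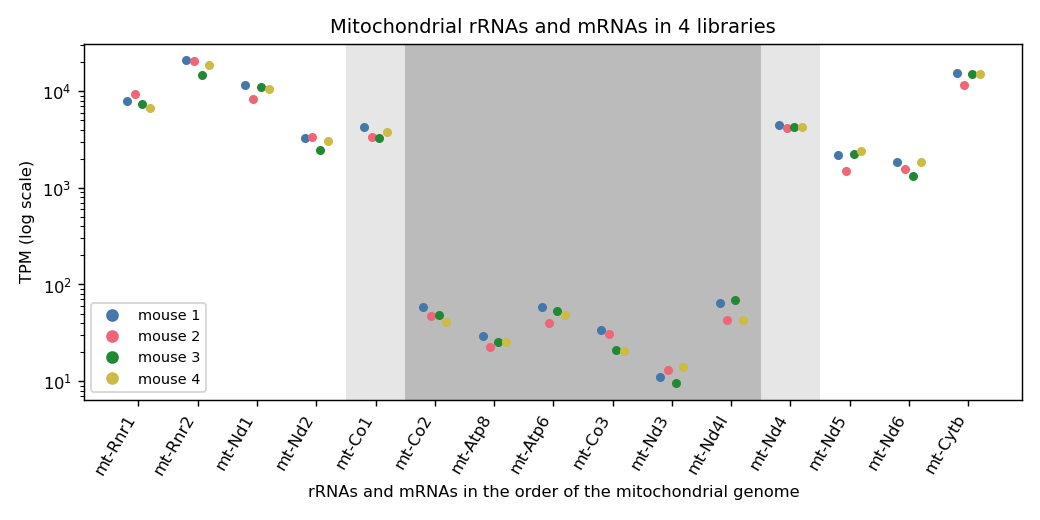
Points give the TPM of each rRNA and mRNA in each of 4 mice on a log axis, in the order of the mitochondrial genome; dark shading marks the 6 genes inside the stretch copied on chromosome 1 and light shading the 2 that cross its borders. The 6 lie between 9.48 and 68.6 TPM, and all others lie above 1000 TPM.

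In the order of the 13 mRNAs by mean TPM, 8 of 12 neighbours differed by more than the SD of their difference within a mouse, in the same direction in 4 of 4 mice. The exceptions were mt-Nd5 and mt-Nd6, mt-Nd4l and mt-Atp6, mt-Atp6 and mt-Co2, and mt-Co3 and mt-Atp8. The largest step, 4.92 ± 0.50 in log2(TPM + 1), was from mt-Nd6, the lowest mRNA not inside the stretch, to mt-Nd4l, the highest inside it.

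mt-Nd4l, inside the stretch, and mt-Nd4, which crosses its border, are overlapping reading frames of a single mRNA, and 7 bases belong to both. In 4 of 4 mice mt-Nd4 was the higher, with a log2(TPM + 1) difference of 6.30 ± 0.33 (exact sign-flip permutation p = 0.125, adjusted p = 0.156) and a TPM ratio of 82.1 ± 18.7. With the counts of their copies on chromosome 1 added, the difference was 5.11 ± 0.12. mt-Atp8 and mt-Atp6, both inside the stretch, likewise share an mRNA and overlap by 43 bases, printed in capitals because a pair over both genes is by default assigned to neither by featureCounts, the counting tool.
mt-Atp8 from base 132 into mt-Atp6: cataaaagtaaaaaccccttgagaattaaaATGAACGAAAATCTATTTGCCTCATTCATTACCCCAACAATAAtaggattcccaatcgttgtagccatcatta
In 4 of 4 mice mt-Atp6 was above mt-Atp8, with a log2(TPM + 1) difference of 0.91 ± 0.10 (exact sign-flip permutation p = 0.125, adjusted p = 0.156). With the counts of Gm10925 added to mt-Atp6 it was 3.67 ± 0.14. No copy counts were added to mt-Atp8, most of which has no annotated pseudogene, so only the mt-Atp6 side was raised.

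For 5 of the 7 copies, the pseudogene held more counts than the mitochondrial gene in 4 of 4 mice. Gm28438 had 9032, 4695, 7528 and 4937 counts where mt-Nd3 had 67, 50, 57 and 50, a ratio of 115 ± 21.6 (SD, n = 4). The ratio was 6.92 ± 0.609 for Gm28661 over mt-Co2, 6.97 ± 1.01 for Gm28437 over mt-Co3, 5.88 ± 0.369 for Gm10925 over mt-Atp6 and 1.35 ± 0.416 for Gm10222 over mt-Nd4l. It was 0.0162 ± 0.00134 for Gm29216 over mt-Co1 and 0.0068 ± 0.000557 for Gm28439 over mt-Nd4, the 2 genes that reach beyond the stretch. All 7 copies together held between 11872 and 23855 counts, 10.4 ± 0.936 times those of the 11 members inside. These sets are not matched. The copies of mt-Co1 and mt-Nd4 are among the 7, and mt-Atp8 and the tRNAs have no copy among them. With its copy added, the mean of mt-Nd3 went from 11.8 to 1337 TPM, mt-Co2 from 48.6 to 382 TPM, mt-Atp6 from 49.7 to 342 TPM, mt-Co3 from 26.6 to 207 TPM and mt-Nd4l from 54.6 to 124 TPM. All 5 of these means stayed below the lowest mean of the 7 mRNAs that are not inside, 1654 TPM for mt-Nd6. Whether counts on a copy come from nuclear or mitochondrial RNA was not tested.

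**Figure D3:**
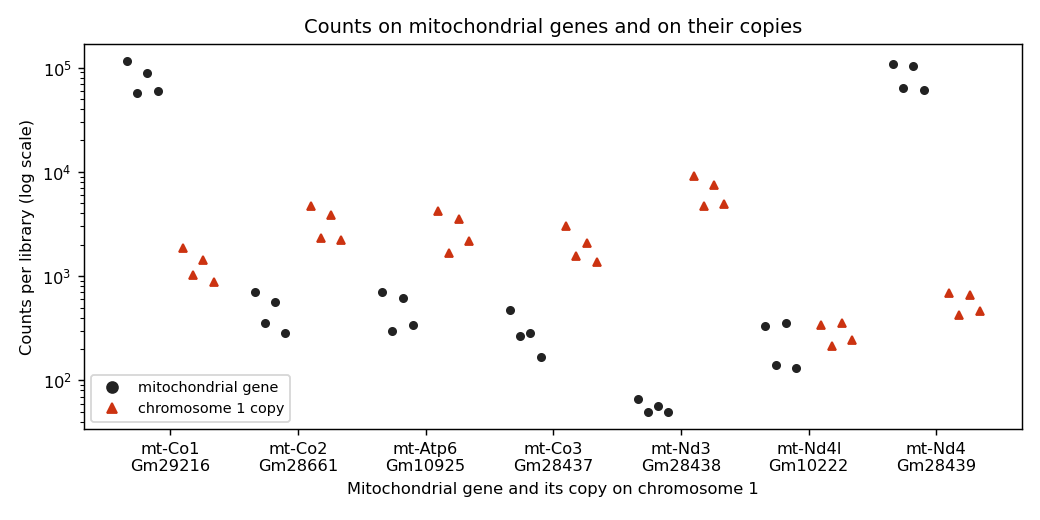
Counts per library on a log axis are shown for 7 mitochondrial genes (circles) and their copies on chromosome 1 (triangles), with 1 symbol per mouse. The triangles are above the circles for mt-Co2, mt-Atp6, mt-Co3 and mt-Nd3, overlap with them for mt-Nd4l, and lie far below them for mt-Co1 and mt-Nd4.

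Outside chromosome 1, 5 more copies at 95% identity or more had at least 3 counts in a library. On chromosome 2, Gm13339 (96.7% identical to 510 bases of mt-Nd2) had between 168 and 308 counts, Gm13340 (97.6% to mt-Co1) between 444 and 839, and Gm13341 (95.9% to mt-Co2) between 530 and 955. Gm13341 thus had more counts than mt-Co2 itself, by 1.56 ± 0.315 times (SD, n = 4). Gm4076 on chromosome 13 (95.2% to mt-Nd5) had between 38 and 97 counts, and Gm43841 on chromosome 5, with 36 bases like mt-Tt, between 5 and 14.

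The tRNAs had few counts, and those on the minus strand had most of them. Minus-strand tRNAs, 8 in all, summed to 2286, 1075, 1509 and 1196 counts in mice 1 to 4, and the 14 on the plus strand to 144, 209, 134 and 195. All 5 of the highest tRNAs lie on the minus strand. mt-Tp, the proline tRNA and last gene before the control region (15356 to 15422), had 1489, 554, 725 and 397 counts. mt-Tq, the glutamine tRNA (3772 to 3842), had 295, 179, 272 and 245 counts, and mt-Te, the glutamate tRNA (14071 to 14139), had 272, 143, 255 and 265. mt-Ta for alanine (5018 to 5086) had 99, 121, 132 and 143 counts, and mt-Tc for cysteine (5192 to 5257) had 96, 69, 100 and 111. Without mt-Tp, the minus-strand tRNAs still summed to between 521 and 799 counts. At the other end, mt-Td, mt-Tk and mt-Tg, for aspartate, lysine and glycine, had 0 counts in every library, where 3 counts correspond to between 0.0689 and 0.132 CPM. All 3 lie inside the copied stretch, as do mt-Ts1, with 16, 9, 11 and 8 counts, and mt-Tr, with 1, 0, 3 and 7. Outside it, mt-Ty had 0, 0, 0 and 14 counts, mt-Tw 3, 0, 0 and 1, mt-Tn 19, 0, 14 and 13, and mt-Th 0, 24, 2 and 12. Apart from the 5 highest and the 3 at 0 in every library, 14 tRNAs had mean counts between 1 and 46.5. Since strand was not used, tRNA and RNA of the opposite strand cannot be told apart. By default, featureCounts assigns a pair over a tRNA and a neighbouring gene to neither. Many tRNAs lie directly beside other genes, as mt-Tl1 (2676 to 2750) does between mt-Rnr2 (to 2675) and mt-Nd1 (from 2751). No gene is listed after mt-Tp, or between mt-Tn (to 5159) and mt-Tc (from 5192). The part of this layout in the order of the tRNAs and in the strand difference was not tested. The sequences of the highest tRNAs and of those at 0 are given in full, 5′ to 3′ on their own strand and in DNA letters, from the GENCODE M21 transcripts, because they bound the range of the tRNAs. Each is shorter than the 80 bases that had to align over both mates together. Mates can overlap, so a pair that lies within a tRNA is not excluded.
mt-Tp: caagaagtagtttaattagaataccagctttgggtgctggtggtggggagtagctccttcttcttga
mt-Tq: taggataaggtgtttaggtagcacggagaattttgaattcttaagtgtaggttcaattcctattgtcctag
mt-Te: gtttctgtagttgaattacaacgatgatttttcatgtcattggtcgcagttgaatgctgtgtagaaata
mt-Td: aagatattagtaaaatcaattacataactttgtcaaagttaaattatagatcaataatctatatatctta
mt-Tk: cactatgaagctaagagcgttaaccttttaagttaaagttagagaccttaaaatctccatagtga
mt-Tg: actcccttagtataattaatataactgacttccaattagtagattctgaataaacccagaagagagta

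**Figure D4:**
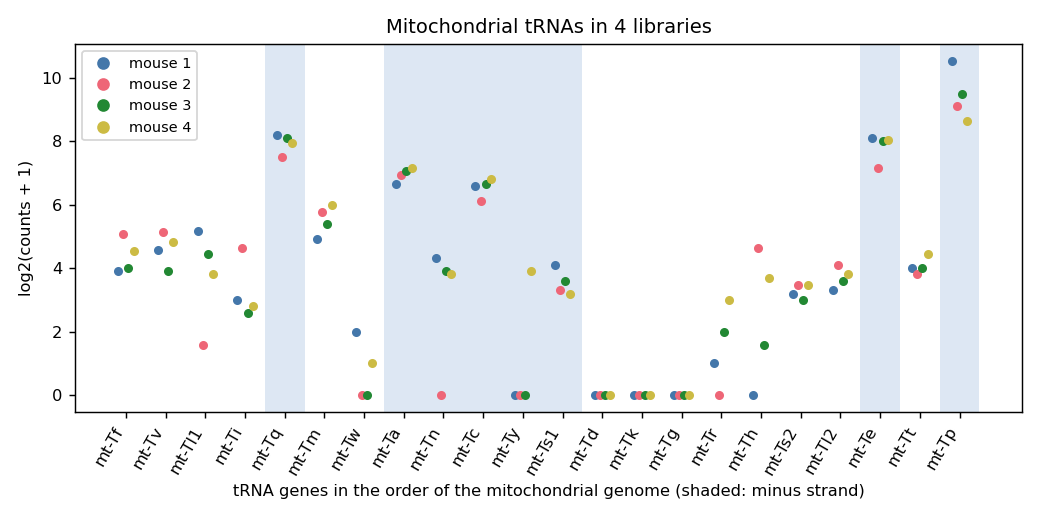
Points give log2(counts + 1) of the 22 tRNAs in each of 4 mice, in the order of the mitochondrial genome, with minus-strand genes shaded. mt-Tp is highest in every mouse, and mt-Td, mt-Tk and mt-Tg lie at 0.

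The median CV of the 13 mRNAs in CPM was 13.7%, with a range from 5.24% for mt-Nd4 to 23.2% for mt-Co3. For the 7 not inside the stretch it was 12.9%. For these 7 and the rRNAs together it was 13.7%, beside 19.8% for the 274 other genes in their CPM range. For the 6 inside it was 17.1%, beside 95.6% for the 5822 other genes in the CPM range of these 6. Counting error alone gives at most 0.914% for any of the 7 and between 4.52% and 13.4% for the 6 inside.

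Levels of the mitochondrial mRNAs were set beside those of the nuclear-encoded subunits of the same complexes. All 70 nuclear-encoded subunits of complexes I, III, IV and V that were matched had at least 3 counts in every library, against 18.1% of all listed genes. mt-Cytb, mt-Nd1, mt-Nd2, mt-Nd4 and mt-Co1 were above all 70 in every mouse, mt-Nd5 above 68 and mt-Nd6 above 67. Within complex I, the nuclear-encoded subunits ranged from Ndufs1, an iron-sulphur subunit, with 16.5 ± 4.92 TPM, to Ndufa1, an accessory subunit, with 1507 ± 161 TPM (SD, n = 4). In complex III they ranged from the core protein Uqcrc2 with 72.1 ± 31.8 TPM to Uqcr10 with 719 ± 125 TPM, and in complex IV from Cox5a with 120 ± 13.2 TPM to Cox6a1 with 1873 ± 184 TPM. In complex V they ranged from Atp5l with 23.7 ± 5.76 TPM to Atp5e with 610.0 ± 68.9 TPM. The length of a gene joins the exons of all its annotated transcripts, so these ranges depend on the annotation as well as on counts. In mouse 1, Atp5l had 3525 counts and 31.1 TPM, and Atp5e had 19092 counts and 618 TPM. The 6 mRNAs inside the copied stretch were below the median of the nuclear-encoded subunits of their complex in every mouse. This leaves out counts on the copies. With them added, mt-Nd3 had a mean of 1337 TPM, beside a mean median of 185 TPM in complex I. mt-Atp6 had 342 TPM beside 271 TPM in complex V, and mt-Co2 had 382 TPM beside 383 TPM in complex IV. mt-Co3 (207 TPM) and mt-Nd4l (124 TPM) stayed below, and nothing could be added to mt-Atp8. This addition was chosen after the data were seen. mt-Co1 was above Cox4i1, a nuclear-encoded subunit of complex IV, in 4 of 4 mice, with a log2(TPM + 1) difference of 2.39 ± 0.27 (exact sign-flip permutation p = 0.125, adjusted p = 0.156).

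**Figure D5:**
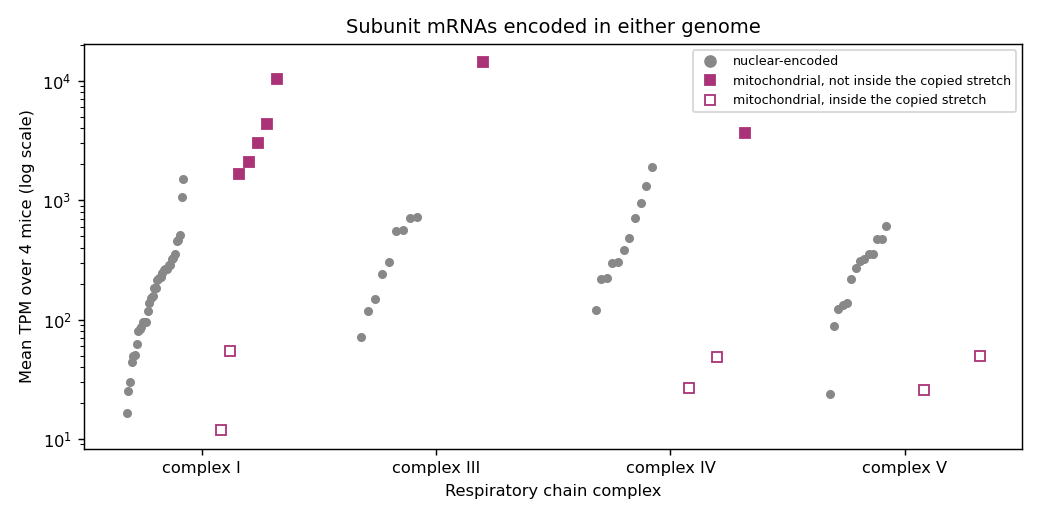
Mean TPM over 4 mice on a log axis is shown for nuclear-encoded subunits (grey circles) and mitochondrial mRNAs (squares, open where inside the copied stretch) of 4 respiratory chain complexes. Filled squares lie above the grey circles of their complex, and open squares lie within or below their lower part. Counts on the chromosome 1 copies are not included.

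Genes that act on the mitochondrial genome and its RNA were lower than the 7 mRNAs that are not inside the stretch, with 90.0 TPM as the highest mean among those named. Of 10 genes of mitochondrial transcription, 6 had at least 3 counts in every library, against 18.1% of all 56980 listed genes. The highest by median were Mterf3, a negative regulator of transcription, with 27.0 ± 12.9 TPM, Tfb2m, an initiation factor, with 13.2 ± 5.92 TPM, and Tfam, which packages the genome and activates its promoters, with 11.3 ± 0.901 TPM (SD, n = 4). The elongation factor Tefm had 2, 0, 714 and 6 counts and Mterf1b had 6, 0, 277 and 1, so both rested on mouse 3.

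Of 21 genes of mitochondrial RNA processing, 17 reached 3 counts in every library, against 18.1% of all listed genes. Rexo2, an exonuclease for short RNAs, had 90.0 ± 26.1 TPM, Hsd17b10, a subunit of the RNase P that cuts the tRNAs free, had 85.4 ± 16.3 TPM, and Fastk had 37.7 ± 23.9 TPM. Fastkd3 had 0, 1, 267 and 164 counts. Of 9 genes of replication and nucleotide supply, 6 reached 3 counts in every library, beside the same 18.1%. The highest of the 9 by median TPM were the thymidine kinase Tk2 with 20.5 ± 4.02 TPM, the single-strand binding protein Ssbp1 with 19.6 ± 8.39 TPM and Rnaseh1 with 18.7 ± 18.5 TPM (mean ± SD), of which Rnaseh1 is not among the 6, with 1814, 0, 1261 and 183 counts. The helicase gene Twnk had 851, 2, 503 and 0 counts, and Top1mt had 0 in every library.

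Of 6 regulators of mitochondrial biogenesis, 3 reached 3 counts in every library, against 18.1% of all listed genes. These were Nrf1 with 8.04 ± 4.12 TPM, Gabpa with 6.54 ± 3.67 TPM and Pprc1 with 4.59 ± 2.84 TPM. The coactivator gene Ppargc1a had 0 counts in every library. Ppargc1b had 0, 0, 56 and 34 counts and Esrra had 58, 0, 182 and 0.

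All 5 genes of the sort antigens and stroma had at least 3 counts in every library, against 18.1% of all listed genes. Among them were Pdgfra (39.8 ± 7.29 TPM) and Itgav, which encodes CD51 (15.7 ± 2.51 TPM). Of the genes excluded by the sort, Ptprc, which encodes CD45, had at most 50 counts in a library, Pecam1 at most 14, and Ly6a, which encodes Sca1, had 1, 120, 0 and 144. All 4 osteoblast markers were present, with a summed level between 77796 and 168031 TPM. Most of this was Bglap, with a mean of 107212 TPM, whereas Sp7, the lowest, had 226 TPM. Summed levels of 6 erythroid markers were 4980, 35.0, 1708 and 358 TPM in mice 1 to 4, against mitochondrial shares of 3.66%, 3.45%, 3.10% and 3.81%. The 4 adipocyte markers summed to between 199 and 962 TPM, the 4 neutrophil markers to between 4.10 and 30.7 TPM, the 4 macrophage markers to between 0 and 6.63 TPM, with Adgre1, Csf1r and C1qa at 0, and the 4 endothelial markers to at most 0.235 TPM, with Cdh5 and Kdr at 0. Of the nuclear RNAs, Malat1 had 1379, 2202, 2058 and 2014 TPM in mice 1 to 4, and Neat1 had 12.4, 0.411, 13.7 and 5.15 TPM. The part of these cells and of RNA quality in the mitochondrial values was not tested, and in sorted bulk samples fewer cells of a type and less RNA per cell cannot be told apart.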

How the data were processed

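RNA-seq of sorted MSCs was available for 4 mice. According to the methods and the submitters' processing notes, the authors aligned 100 bp read pairs to GRCm39 with STAR 2.7.10, merged overlapping mates, required 40% of the bases to align, counted uniquely mapped pairs on Ensembl 108 exons with featureCounts (Subread 1.6.5) without a strand option, and deposited the raw counts. The main methods list these libraries under another pipeline as well, and the description specific to MSCs was followed. No column was left unused. TPM was computed with exon lengths of GENCODE M21 (GRCm38), which 4907 listed genes lack, in Python 3.11.15 with numpy 2.4.6 and pandas 2.3.3. Exons of all annotated transcripts of a gene were joined for its length. Copies were searched with BLAST 2.17.0 (word size 20, 95% identity) among annotated transcripts. TPM code was tested on simulated data. TMM and size factors came from edgeR 4.0.16 and DESeq2 1.42.0 and served as alternatives only. The depth was 22738604 to 43545349 counts, and floors of 3 counts cover counting error only, since PCR copies are not independent molecules. Libraries differed by far more than sampling noise, with a chi-square per degree of freedom of at least 230.5 for every pair.

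Named were all mRNAs and rRNAs, the 5 highest and the lowest tRNAs by mean count, the 3 highest genes of each list of mitochondrial functions and those under 3 counts in 2 or more libraries, the highest and lowest nuclear-encoded subunit of each complex, and each copy with at least 3 counts. Members and lists were chosen with earlier results of these data known. Of 15 nuclear-encoded subunits of complex V, 14 were matched. Each library is 1 mouse.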

Additional observations from a re-analysis of the deposited data

Results flagged for a closer look

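Of 43 values compared over the 4 mice, 6 had a single mouse apart from the others by Dixon's criterion at 95%, in which the gap between that mouse and the next is divided by the range over 4 samples. Chance alone gives about 1 in 20, or 2.15 of 43, and values of a library are not independent of each other. mt-Rnr2 was lowest in mouse 3, at 9480 CPM against at least 13377 CPM in the other mice (gap 0.876 of the range). The other 5 were highest in mouse 4, the library with the fewest counts. In that mouse mt-Tq had 10.8 CPM against at most 6.87 (gap 0.885), mt-Te had 11.7 CPM against at most 6.25 (gap 0.877) and mt-Tc had 4.88 CPM against at most 2.65 (gap 0.834). Among the copies on chromosome 1, Gm28439 had 20.4 CPM against at most 16.1 (gap 0.889) and Gm10222 had 10.8 CPM against at most 8.33 (gap 0.831). The part of depth in these values was not tested.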

How the results depend on the processing

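The mitochondrial share of 3.50% depends on what is counted. It was 2.07% among protein-coding genes only, 5.23% without the 10 highest other genes, 6.79% as a share of TPM and, in an alternative chosen after the data were seen, 1.93% without the 2 rRNAs. Leaving out each mouse gave 3.40% to 3.64%. All 5 differences between pairs kept their direction under every alternative run, and p cannot go below 0.125 with 4 mice or 0.25 with 3. The mRNA share, the number of members detected (24 to 31) and the median CV (12.8% to 16.5%) moved by less than the spread or by less than 1.5 times. CPM in place of TPM moved all 15 rRNA and mRNA levels, since it carries no length. Lengths without shared bases moved mt-Atp8, to 32.7 TPM, and the protein-coding denominator and the denominator without the members each moved only mt-Nd4, to 4698 and 4605 TPM. Counts of 0 to 46.5 on average limit the precision of the lower tRNAs. The 5 pairs of genes were compared within each mouse, and no replicate block between conditions could be fitted, since all libraries belong to a single group.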
